A study of Mus musculus with 9 samples.

Results

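The transcripts described here encode 10 transcription factors that hold T cells in the naive state or mark long-lived memory cells: Tcf7, Lef1, Bach2, Id3, Foxo1, Foxp1, Satb1, Myb, Ets1 and Zeb1. They were chosen by symbol, and all 10 were found among the 18188 genes listed in every library and passed the filter on low values. RNA was taken from CD8+ T cells of mouse spleens, in 4 libraries labelled KO_Rig1 (genotype Rig1 KO) and 5 libraries labelled WT. RIG-I, the product of the targeted gene, is a cytosolic sensor of viral RNA, and the series title places it inside these cells as a limit on antitumour immunity. The labels state neither strain, age, sex and cell purification nor how the knockout was made. Libraries are numbered without reference to individual animals. The p-values therefore cover the spread between libraries, part of which may be technical.

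Naive CD8+ T cells are kept quiescent and able to renew by a network of factors that oppose the effector programme. TCF-1 (the product of Tcf7) and LEF-1 bind DNA through an HMG box and work with β-catenin or with Groucho/TLE corepressors. FOXO1 drives genes of homing and survival and is switched off when AKT phosphorylates it, and BACH2 represses sites that AP-1 factors would otherwise use. ID3 restrains E proteins, ZEB1 is a zinc-finger repressor whose relative ZEB2 acts in terminal effector cells, and FOXP1, SATB1, MYB and ETS1 support quiescence, chromatin organisation, self-renewal and T cell identity. On antigen encounter most of these transcripts are known to decline as T-bet, BLIMP-1 and ID2 take over.

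Library totals lay between 15.5 and 17.9 M reads, as recovered from the deposited values, and each library had between 15196 and 15631 genes above 0. The targeted gene, listed under its older symbol Ddx58, was at 33.3 ± 2.04 TPM in Rig1 KO libraries (SD, n = 4) and 65.1 ± 2.0 TPM in WT libraries (SD, n = 5), so its transcript was reduced and not absent (limma adjusted p = 4.91e-07). The labelled cell type was borne out by its markers, since Cd8a, Cd8b1 and the Cd3 genes were abundant in every library. Of 9 CD8 T cell markers measured, 8 were higher in Rig1 KO, and their summed level ran from 5159 to 5751 TPM in Rig1 KO and from 3752 to 4329 TPM in WT. Transcripts of B cells, which also use Foxo1, Foxp1, Bach2 and Ets1, differed in the other direction. With the mean of the B cell markers as a covariate, 1 of the 10 factors was higher in Rig1 KO (Ets1, log2 fold change 0.45, limma adjusted p = 0.00608) and 0 were lower. Of all 10540 tested genes, 2279 were higher and 625 lower with that covariate. The fold changes of Bach2, Myb and Id3 stayed close to those without it, while that of Tcf7 was smaller. The covariate itself differed between the genotypes, so calls lost under it do not tell B cell content and genotype apart. Of 12 B cell markers tested 11 were lower in Rig1 KO, and the summed level of the 14 measured ran from 164 to 294 TPM in Rig1 KO and from 258 to 1348 TPM in WT, with WT 5 the highest and WT 4 next. CD4 T cell markers summed to 21.8 to 25.6 TPM in Rig1 KO and 21.3 to 69.3 TPM in WT, again with WT 5 the highest. No measured marker of any list was at 0 in all libraries. In such bulk RNA, fewer cells of a type and less RNA per cell cannot be told apart.

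Promoter sequences show where these genes start and which of the factors' own recognition letters lie there. RefSeq windows (build GRCm38.p6) held 300 bases, from 250 before to 50 after a transcript start. They matched 8 of the 10 genes, with 18 windows in all. None was matched for Ets1. Zeb1 was left out of the search, so whether it has such a window was not tested. The windows shown belong to the 4 factors with an entry whose level passed the test, with 1 of 2 windows for Tcf7, since the other held 0 matches, and capitals mark the motif matches described after them. They are Tcf7 at chr11:52282546-52282845 (minus strand), Id3 at chr4:136143572-136143871 (plus strand), Bach2 at chr4:32417185-32417484 (plus strand) and Myb at chr10:21160935-21161234 (minus strand), each written 5′ to 3′ along the gene. The Bach2 window lies at a start inside the gene. The Tcf7 window shown lies downstream, along the gene, of the other Tcf7 window (chr11:52282965-52283264), so it is not at the first of the 2 starts.
Tcf7: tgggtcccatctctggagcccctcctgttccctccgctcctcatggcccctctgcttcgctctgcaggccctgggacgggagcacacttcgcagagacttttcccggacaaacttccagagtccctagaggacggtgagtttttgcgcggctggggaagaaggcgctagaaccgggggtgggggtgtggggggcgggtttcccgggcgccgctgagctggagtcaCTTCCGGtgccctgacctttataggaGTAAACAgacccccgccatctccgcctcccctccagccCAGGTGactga
Id3: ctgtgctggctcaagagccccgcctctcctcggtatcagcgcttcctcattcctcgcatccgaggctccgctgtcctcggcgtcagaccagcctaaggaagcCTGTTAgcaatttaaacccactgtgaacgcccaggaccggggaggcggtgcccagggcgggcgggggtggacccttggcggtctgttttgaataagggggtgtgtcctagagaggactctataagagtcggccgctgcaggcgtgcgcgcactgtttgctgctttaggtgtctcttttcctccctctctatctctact
Bach2: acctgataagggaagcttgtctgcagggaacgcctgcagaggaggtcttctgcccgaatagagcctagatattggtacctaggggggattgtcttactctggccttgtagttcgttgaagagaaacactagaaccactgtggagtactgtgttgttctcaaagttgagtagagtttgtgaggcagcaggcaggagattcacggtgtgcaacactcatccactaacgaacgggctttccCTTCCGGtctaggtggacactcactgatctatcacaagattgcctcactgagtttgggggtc
Myb: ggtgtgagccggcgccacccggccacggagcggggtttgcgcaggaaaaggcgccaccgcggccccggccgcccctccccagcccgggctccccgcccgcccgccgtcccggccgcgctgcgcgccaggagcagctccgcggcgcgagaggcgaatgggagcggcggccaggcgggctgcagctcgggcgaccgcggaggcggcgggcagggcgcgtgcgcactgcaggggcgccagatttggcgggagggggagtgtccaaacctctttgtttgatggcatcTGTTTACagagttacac

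The letters searched on both strands were CTTTGAT for TCF-1 and LEF-1, GTAAACA for FOXO factors, CCGGAAG for ETS factors, CACCTG for the E-box that ZEB1 binds, TGANTCA for BACH and AP-1 factors and TAACNG for MYB. The Tcf7 window held the FOXO letters as written and the ETS and E-box letters as their reverse complements, and these matches do not overlap each other. The Myb window held the FOXO letters, the Bach2 window the ETS letters and the Id3 window the MYB letters, each as the reverse complement. Over the 18 windows of the 8 genes, the FOXO letters stood in 2, the ETS letters in 2, the E-box in 5 and the MYB letters in 8, while the TCF/LEF and the BACH and AP-1 letters stood in 0. Some windows of Lef1 and of Satb1 overlap and hold the same MYB match, so these counts are not of separate sites. Counted by gene, the FOXO letters stood in 2, the ETS letters in 2, the E-box in 4 and the MYB letters in 5 of the 8. Among 32817 windows of all genes, the share was 3.65% for FOXO, 8.86% for ETS, 20.2% for the E-box, 23.3% for MYB, 3.73% for TCF/LEF and 7.81% for BACH and AP-1. Genes with several windows had more chances of a match than a single window. A match describes letters in these windows and was not tested as a binding site.

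The 10 factors changed little and in both directions. Ets1, Tcf7 and Id3 rose in Rig1 KO, Bach2 and Myb fell, and Lef1, Satb1, Foxo1, Foxp1 and Zeb1 did not pass the test. No mean differed between the genotypes by more than 1.26-fold. The values are TPM as deposited (reads per gene length and library total), and the test was limma on log2(TPM + 1) over 10540 genes with Benjamini-Hochberg adjustment at 0.05. Of all tested genes, 45.7% were called at that threshold, with 33.5% higher and 12.2% lower in Rig1 KO, so 5 of 10 factors called is near the background. The genotypes did not overlap for 2 of the 10 factors and for 38.1% of all tested genes. Both factors, and 28.0% of all tested genes, lay higher in Rig1 KO, and 0 factors and 10.1% of genes lay lower. TPM depends on the total of each library, and over all tested genes the log2 fold change had a median of 0.13, and of 0.01 after median ratio scaling. The change of each of the 10 factors is therefore given under both scalings, and other genes are on the deposited scale unless stated.

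Ets1 is needed for normal T cell development and the interleukin-7 receptor. It had the largest fold change of the 10 with TPM as deposited, next to that of Myb. After median ratio scaling those of Myb, Bach2, Zeb1 and Foxo1 were larger in size, and that of Foxp1 was about equal (-0.21 on the log2 scale). Ets1 had 179, 180.0, 199 and 185 TPM in Rig1 KO libraries 1 to 4, against 152, 135, 140.2, 153 and 155 TPM in WT libraries 1 to 5. Every Rig1 KO library was above every WT library. The mean was 186 ± 9.36 TPM in Rig1 KO and 147 ± 8.85 TPM in WT, a log2 fold change of 0.33 (SE 0.06, limma adjusted p = 0.00102). After median ratio scaling the log2 fold change was 0.21 (limma adjusted p = 0.00364) and the groups still did not overlap. Ets1 passed under each of 23 alternative settings, with log2 fold changes of 0.21 to 0.45 and limma adjusted p up to 0.00608. Between 23995 and 34778 reads per library stood behind these values.

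Tcf7, the gene of the stem-like memory factor TCF-1, had 520.3, 495, 563 and 555 TPM in Rig1 KO libraries 1 to 4, against 477, 467, 483, 462 and 419 TPM in WT libraries 1 to 5. The groups did not overlap, and WT 5 was the lowest of all. The mean was 533 ± 31.8 TPM in Rig1 KO and 462 ± 25.2 TPM in WT (log2 fold change 0.21, SE 0.06, limma adjusted p = 0.0157). After median ratio scaling the log2 fold change was 0.08 and did not pass (limma adjusted p = 0.274). With both WT 4 and WT 5 left out, where B cell markers were highest, it did not pass either (0.16, limma adjusted p = 0.0582). Reads were counted over the whole gene, so the long TCF-1 forms that bind β-catenin and the short forms that lack that region were not told apart.

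Id3, the inhibitor of E proteins that marks memory precursors, had 100.3, 92.1, 103 and 96.7 TPM in Rig1 KO libraries 1 to 4. WT libraries 1 to 5 had 80.0, 78.3, 74.8, 93.4 and 69.3 TPM, and WT 4 alone reached into the Rig1 KO range. The mean was 98.1 ± 4.86 TPM in Rig1 KO and 79.2 ± 8.96 TPM in WT (log2 fold change 0.31, SE 0.08, limma adjusted p = 0.00893). After median ratio scaling the log2 fold change was 0.19 and did not pass (limma adjusted p = 0.0833). Id3 is the shortest of the 10 genes and rested on the fewest reads, 219 to 363 per library.

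Bach2, the repressor that competes with AP-1, had 4.39, 4.52, 5.20 and 4.96 TPM in Rig1 KO libraries 1 to 4, against 6.06, 5.91, 6.35, 4.94 and 6.01 TPM in WT libraries 1 to 5. WT 4 lay among the Rig1 KO libraries and the other WT libraries lay above them. The mean was 4.77 ± 0.373 TPM in Rig1 KO and 5.85 ± 0.536 TPM in WT, and the log2 fold change was -0.25 (SE 0.09, limma adjusted p = 0.0361). This call was lost when any 1 library other than Rig1 KO 3 or WT 4 was left out, with a limma adjusted p up to 0.0953 and a fold change between -0.30 and -0.22. After median ratio scaling the log2 fold change was -0.35 (limma adjusted p = 0.00437), and all Rig1 KO libraries were below all WT libraries. Without WT 4 and WT 5 it was -0.30 (limma adjusted p = 0.0252).

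Myb, which sustains stem-like memory cells, had 30.5, 29.4, 43.4 and 38.1 TPM in Rig1 KO libraries 1 to 4, against 43.8, 41.5, 47.8, 47.8 and 39.5 TPM in WT libraries 1 to 5. Rig1 KO 1, 2 and 4 were below all WT libraries, while Rig1 KO 3 lay inside their range. The mean was 35.4 ± 6.62 TPM in Rig1 KO and 44.1 ± 3.71 TPM in WT, with a log2 fold change of -0.32 (SE 0.11, limma adjusted p = 0.0377). Leaving out Rig1 KO 1, Rig1 KO 2, WT 1, WT 3 or WT 4 ended the call, with a limma adjusted p up to 0.106. After median ratio scaling the log2 fold change was -0.44 (limma adjusted p = 0.00298), with no overlap. Without WT 4 and WT 5 it was -0.33 with TPM as deposited (limma adjusted p = 0.0647).

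**Figure D1:**
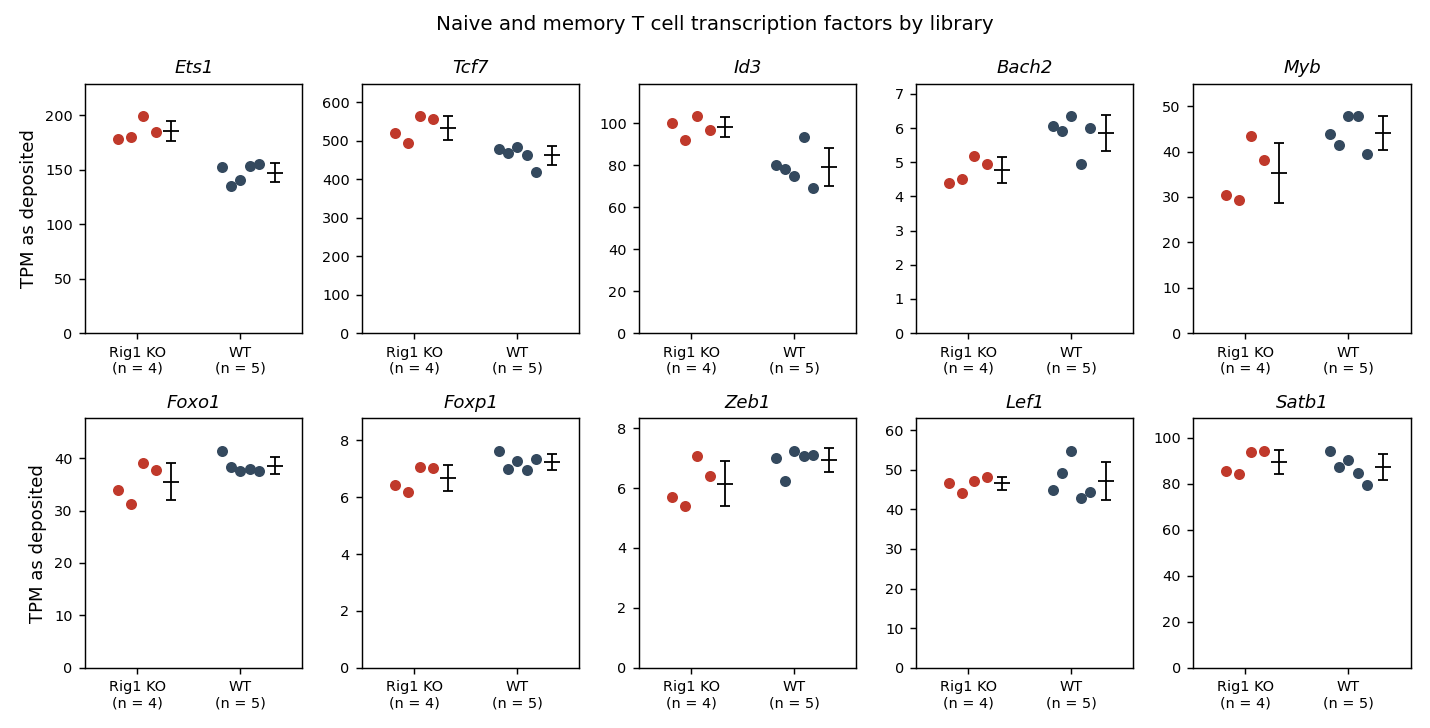
TPM as deposited of the 10 factors in each library, on axes that start at 0, with Rig1 KO at the left and WT at the right of each panel. Points are libraries in label order, and the bar beside them is the mean ± SD. Ets1 and Tcf7 are the panels in which the groups do not overlap.

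The forkhead genes Foxo1 and Foxp1 and the repressor gene Zeb1 did not pass with TPM as deposited, but each was lower in Rig1 KO after median ratio scaling. Foxo1, the target of AKT, had 33.8, 31.4, 39.2 and 37.7 TPM in Rig1 KO libraries 1 to 4, against 41.4, 38.3, 37.5, 38.0 and 37.5 TPM in WT libraries 1 to 5. Rig1 KO 1 and 2 were below all WT libraries and Rig1 KO 3 and 4 were among them. Its log2 fold change was -0.12 (95% interval -0.28 to 0.04, limma adjusted p = 0.193), and -0.24 after median ratio scaling (limma adjusted p = 0.00637).

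Foxp1, which enforces quiescence of naive T cells, had 6.42, 6.18, 7.08 and 7.04 TPM in Rig1 KO libraries 1 to 4, against 7.63, 6.98, 7.26, 6.97 and 7.33 TPM in WT libraries 1 to 5. Its log2 fold change was -0.10 (95% interval -0.25 to 0.05, limma adjusted p = 0.252), and -0.21 after median ratio scaling (limma adjusted p = 0.00972). Zeb1, a repressor that binds E-boxes, had 5.69, 5.39, 7.07 and 6.41 TPM in Rig1 KO libraries 1 to 4, against 6.99, 6.23, 7.24, 7.08 and 7.10 TPM in WT libraries 1 to 5. Both genes were lowest in Rig1 KO 1 and 2. The log2 fold change of Zeb1 was -0.16 (95% interval -0.35 to 0.03, limma adjusted p = 0.163), and -0.26 after median ratio scaling (limma adjusted p = 0.00557).

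Lef1 and Satb1 did not pass under either scaling. Lef1, the closest relative of Tcf7, had 46.5, 44.1, 47.2 and 48.2 TPM in Rig1 KO libraries 1 to 4, against 44.8, 49.2, 54.7, 42.7 and 44.4 TPM in WT libraries 1 to 5. Its log2 fold change was -0.01 (95% interval -0.18 to 0.15, limma adjusted p = 0.884), and -0.14 after median ratio scaling (limma adjusted p = 0.180). Satb1, the organiser of chromatin loops in thymocytes, had 85.4, 84.2, 93.6 and 94.2 TPM in Rig1 KO libraries 1 to 4, against 94.0, 87.3, 90.1, 84.6 and 79.2 TPM in WT libraries 1 to 5. Its log2 fold change was 0.04 (95% interval -0.10 to 0.18, limma adjusted p = 0.643), and -0.09 after median ratio scaling (limma adjusted p = 0.284). For both genes the libraries of the genotypes were mixed.

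Under median ratio scaling the balance of the 10 factors therefore differed from that with TPM as deposited. Then 1 factor was higher (Ets1) and 5 were lower (Bach2, Myb, Foxo1, Foxp1 and Zeb1), where 45.2% of 10524 tested genes were called, 23.7% higher and 21.5% lower. After that scaling the genotypes did not overlap for any of these 6 factors. Over all tested genes the share without overlap was 18.4% lower and 19.6% higher in Rig1 KO. The median over the 10 factors was -0.06 on the deposited scale, against 0.13 over all tested genes, and -0.17 on the rescaled one, against 0.01. Limma-voom on the recovered reads called the same 5 factors lower and called Ets1 and Tcf7 higher.

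**Figure D2:**
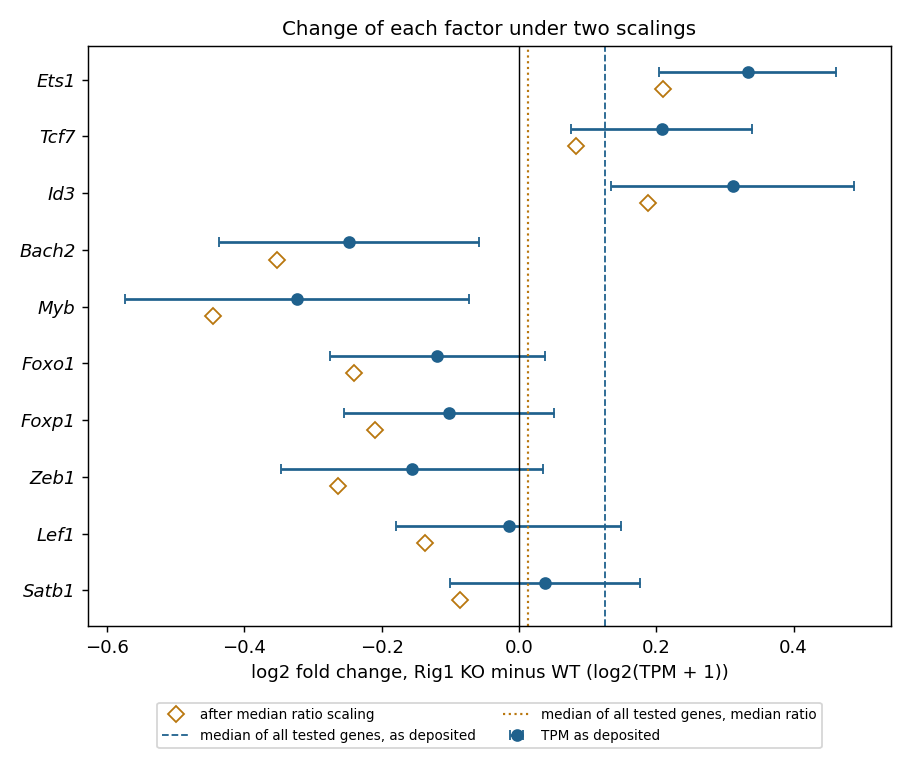
Log2 fold change of each factor, Rig1 KO minus WT, on the deposited TPM scale (circles with 95% intervals) and on the median ratio scale (diamonds), and the median of all tested genes under each scaling (vertical lines). Ets1 lies to the right of 0 and Bach2 and Myb to the left under both, and the diamonds sit to the left of the circles as does the median of all genes, at 0.13 for the circles and 0.01 for the diamonds.

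Within the Rig1 KO group the factors followed the libraries. For 9 of the 10 (all but Id3), Rig1 KO 1 and 2 were both below Rig1 KO 3 and 4 with TPM as deposited. The same order held for 53.7% of all tested genes. After median ratio scaling it held for 4 of the 10 factors and 24.8% of all tested genes. The coefficient of variation over Rig1 KO libraries ran from 3.78% for Lef1 to 18.7% for Myb, and over WT libraries from 3.78% for Foxp1 to 11.3% for Id3. The labels do not say whether Rig1 KO 1 and 2 share a source.

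Levels can be compared between genes only per length, and the lengths behind the deposited TPM were genomic spans with introns included. The span was 1.26 times the exon length for Id3 and 43.4 times for Foxp1, so the values were recomputed per exon length from the recovered reads. Whether reads within introns were counted is not stated in the sources used here. If they were, levels per exon length are too high for genes with long introns, such as Foxp1, and the order below would be affected. On that scale Tcf7 was the most abundant of the 10, at 2259 ± 83.0 TPM in Rig1 KO and 2008 ± 125 TPM in WT, and Ets1 was second, at 957 ± 31.6 TPM in Rig1 KO and 778 ± 39.2 TPM in WT. Lef1 followed at 217 ± 4.61 TPM in Rig1 KO and 225 ± 24.6 TPM in WT, then Satb1 at 164 ± 6.08 TPM in Rig1 KO and 164 ± 11.7 TPM in WT. Foxo1 stood at 125 ± 9.70 TPM in Rig1 KO and 139 ± 6.49 TPM in WT, and Foxp1 at 104 ± 4.61 TPM in Rig1 KO and 116 ± 4.27 TPM in WT. The lowest were Bach2, Myb, Zeb1 and Id3, between 39.4 and 59.8 TPM in Rig1 KO and between 36.8 and 75.4 TPM in WT. Their ranges overlapped from one to the next in Rig1 KO, where Id3 averaged above Zeb1, and in WT only Myb and Zeb1 were apart. Satb1 and Foxo1 overlapped in WT and not in Rig1 KO.

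**Figure D3:**
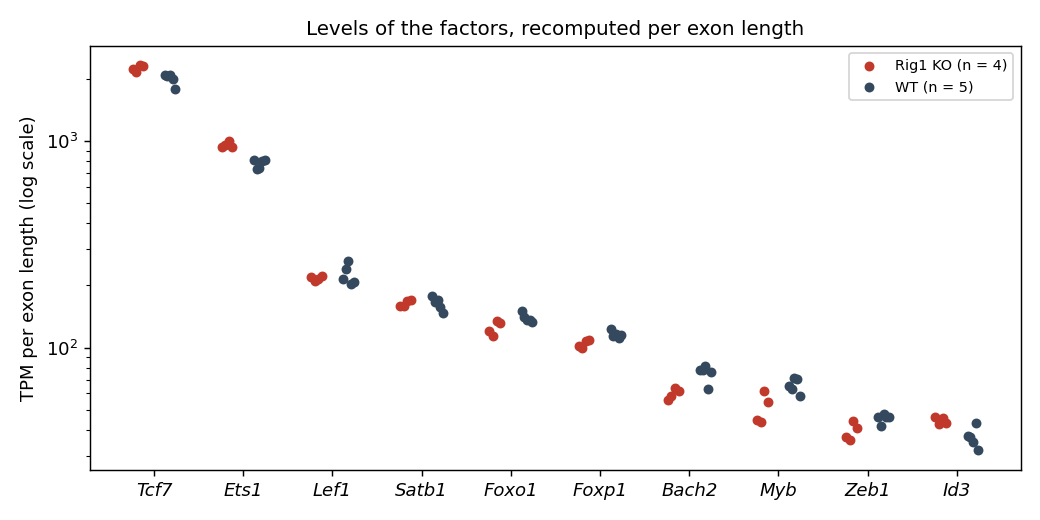
Level of each factor per exon length in TPM, on a log axis, ordered by the WT mean, with 1 point per library and Rig1 KO left of WT. Tcf7 and Ets1 stand above the rest in all libraries.

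The factors were also set against relatives and antagonists within each library, as a ratio of 2 transcripts per exon length, which a common factor on all values of a library leaves as it is. These 7 pairs were chosen after the values were seen and were not tested. The limit on levels per exon length holds for the size of these ratios too. Tcf7 was 15.1, 15.9, 17.6 and 15.1 times the level of Tbx21, which encodes the effector factor T-bet, in Rig1 KO libraries 1 to 4, and 43.5, 37.2, 31.3, 37.5 and 26.8 times in WT libraries 1 to 5. The mean ratio was 2.22-fold lower in Rig1 KO and the groups did not overlap. Tbx21 itself was at 57.2 ± 4.39 TPM in Rig1 KO and 22.7 ± 3.50 TPM in WT, a log2 fold change of 1.30 (limma adjusted p = 5.37e-06).

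Bach2 was 4.82 to 6.64 times the level of Prdm1, which encodes the effector repressor BLIMP-1, in Rig1 KO and 13.8 to 22.6 times in WT, a 3.0-fold lower mean ratio. Prdm1 was at 1.84 ± 0.134 TPM in Rig1 KO, against 0.771 ± 0.148 TPM in WT (log2 fold change 0.68). In WT it was low, at 0.573 to 0.932 TPM. It passed the filter (1 TPM in at least 4 libraries) only through the 4 Rig1 KO libraries, where it was high. Its test is therefore not used as support. The part of other cell types in the Tcf7 to Tbx21 and Bach2 to Prdm1 ratios was not tested. Zeb1 was 2.56 to 2.73 times the level of Zeb2 in Rig1 KO and 3.60 to 9.16 times in WT, with the WT libraries far more spread. Over WT libraries 1 to 5, Zeb2 was at 2.03, 2.15, 3.40, 4.0 and 5.26 TPM, and myeloid markers summed to 483, 553, 753, 785 and 988 TPM, in the same order. In Rig1 KO these markers summed to 811 to 951 TPM, and their part in the ratio was not tested. Zeb2 was at 6.17 ± 0.732 TPM in Rig1 KO and 3.37 ± 1.34 TPM in WT (limma adjusted p = 0.0104). Myb was 12.7 to 14.7 times the level of its relative Mybl1 in Rig1 KO and 31.4 to 68.1 times in WT, where Mybl1 was low at 0.697 ± 0.205 TPM against 1.70 ± 0.230 TPM in Rig1 KO. Mybl1 reached at most 0.944 TPM in WT, so it too passed the filter only through the Rig1 KO libraries. Prdm1 and Mybl1 are counted among the genes that rose in the lists below.

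Ets1 moved the other way against its relative. It was 25.9 to 27.9 times the level of Ets2, a factor induced by growth signals, in Rig1 KO and 12.5 to 14.5 times in WT, a 1.98-fold higher mean ratio with no overlap. Id3 was 0.178 ± 0.00534 times the level of Id2 in Rig1 KO and 0.174 ± 0.0259 times in WT, and Foxo1 was 1.90 ± 0.204 times the level of Foxo3 in Rig1 KO and 1.96 ± 0.163 times in WT. In both of these pairs the genotypes overlapped. Id2, which directs cells toward the effector fate, rose as Id3 did, to 506 ± 16.2 TPM in Rig1 KO, against 422 ± 35.8 TPM in WT (log2 fold change 0.26, limma adjusted p = 0.00741), on the deposited scale.

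**Figure D4:**
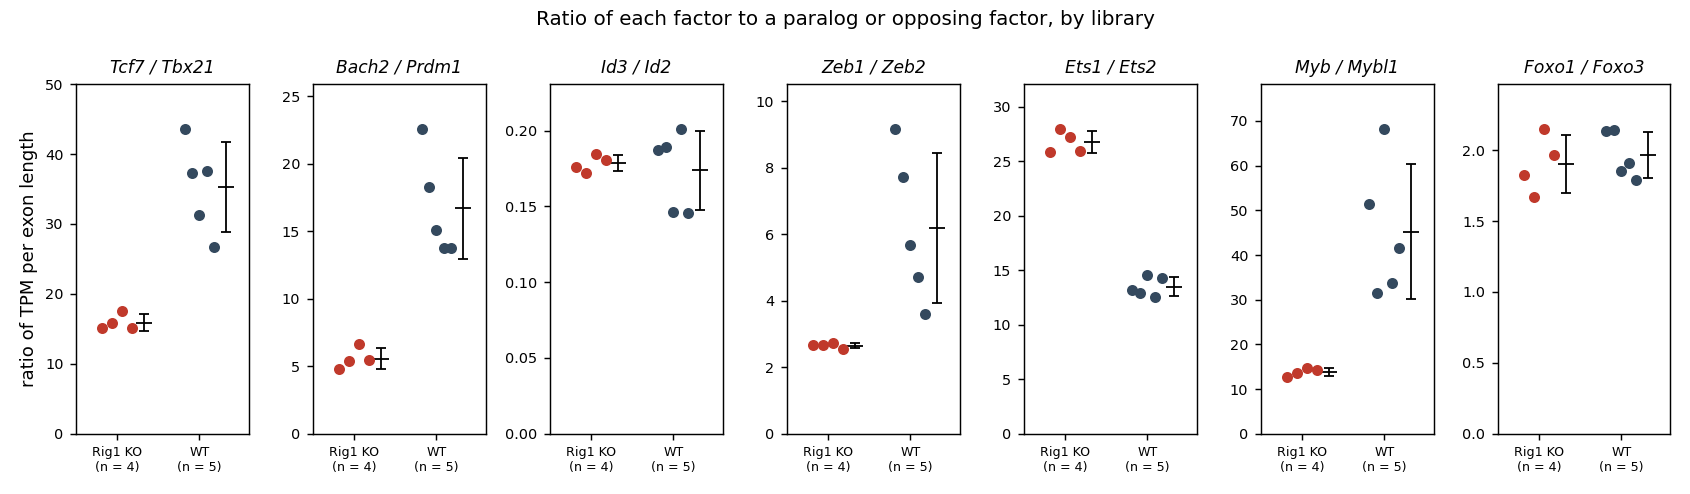
Ratio of each factor to a relative or an opposing factor in each library, per exon length, on axes that start at 0, with Rig1 KO left of WT and the mean ± SD beside the points. The ratios of Tcf7 to Tbx21, Bach2 to Prdm1, Zeb1 to Zeb2 and Myb to Mybl1 are lower in all Rig1 KO libraries, that of Ets1 to Ets2 is higher, and those of Id3 to Id2 and Foxo1 to Foxo3 overlap.

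The partners and relatives of the factors were examined as a list of 41 genes, of which 33 were tested, 9 rose, 8 fell and 16 did not pass. These are 27.3% higher and 24.2% lower, against 33.5% and 12.2% of all tested genes. Their median was 0.08 on the log2 scale, against 0.13 over all tested genes, and after median ratio scaling 7 were higher and 11 lower, where all tested genes had 23.7% and 21.5%. Of the genes named here, Id2 did not pass on that scale (0.14, limma adjusted p = 0.0942), and Tcf3, Foxo3 and Fli1 were lower (-0.19, -0.18 and -0.17). The small Maf genes, whose products pair with BACH2 to bind DNA, held the largest falls. Maff was at 2.06 ± 0.315 TPM in Rig1 KO and 64.7 ± 3.34 TPM in WT (log2 fold change -4.43, limma adjusted p = 9.90e-11), and Mafk at 75.8 ± 1.68 TPM in Rig1 KO and 213 ± 18.7 TPM in WT. The third, Mafg, was at 43.7 ± 3.42 TPM in Rig1 KO and 36.7 ± 5.05 TPM in WT and did not pass (limma adjusted p = 0.0542). Bach1, the relative of Bach2, did not pass either, at 19.6 ± 1.42 TPM in Rig1 KO and 18.5 ± 1.34 TPM in WT.

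Among the Groucho/TLE corepressors of TCF-1 and LEF-1, Tle4 fell to 8.73 ± 0.636 TPM in Rig1 KO, against 10.7 ± 0.629 TPM in WT (limma adjusted p = 0.0115). Tle1 fell to 2.26 ± 0.30 TPM, against 2.96 ± 0.221 TPM in WT (limma adjusted p = 0.0276). Tle3 was at 85.7 ± 5.24 TPM in Rig1 KO and 86.1 ± 4.90 TPM in WT, and did not pass. Nor did Tle2, at 2.55 ± 0.397 TPM in Rig1 KO and 2.59 ± 0.695 TPM in WT, or Tle5, at 548 ± 53.3 TPM in Rig1 KO and 484 ± 19.5 TPM in WT (limma adjusted p = 0.991 and 0.0540). The TCF relative Tcf7l2 was below the filter, at 0.743 ± 0.0891 TPM in Rig1 KO and 0.544 ± 0.141 TPM in WT. The E protein genes Tcf3 and Tcf12, whose products ID3 binds, did not pass (limma adjusted p = 0.510 and 0.361). Tcf3 was at 66.2 ± 5.13 TPM in Rig1 KO and 69.5 ± 6.8 TPM in WT, and Tcf12 at 9.27 ± 0.999 TPM in Rig1 KO and 8.61 ± 0.409 TPM in WT. Tcf4 was below the filter, at 0.599 ± 0.117 TPM in Rig1 KO and 1.13 ± 0.521 TPM in WT.

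Other forkhead genes included Foxo4, which fell to 102 ± 8.06 TPM in Rig1 KO, against 127 ± 8.21 TPM in WT (limma adjusted p = 0.00369), and Foxp4, which fell to 14.0 ± 0.211 TPM, against 18.1 ± 2.02 TPM in WT (limma adjusted p = 0.00490). Foxo3 did not pass, at 14.6 ± 0.301 TPM in Rig1 KO and 15.4 ± 0.904 TPM in WT. In the ETS family, Ets2 fell to 30.1 ± 1.63 TPM, against 47.4 ± 4.33 TPM in WT (limma adjusted p = 7.18e-05), while Elf4 rose to 98.4 ± 6.97 TPM, against 72.5 ± 4.12 TPM in WT (limma adjusted p = 0.000321), and Gabpa rose to 50.4 ± 5.75 TPM, against 38.4 ± 1.91 TPM in WT. Elf1, at 60.1 ± 7.47 TPM in Rig1 KO and 60.2 ± 3.68 TPM in WT, and Fli1, at 18.1 ± 0.576 TPM in Rig1 KO and 18.8 ± 1.43 TPM in WT, did not pass (limma adjusted p = 0.936 and 0.583). The Runt factor Runx3, which fixes CD8 lineage identity, rose to 53.0 ± 4.66 TPM, against 42.5 ± 3.8 TPM in WT (limma adjusted p = 0.00936), and Runx2 rose to 3.46 ± 0.279 TPM, against 1.83 ± 0.251 TPM in WT (limma adjusted p = 0.000317).

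Surface and signalling genes of naive and memory T cells, several of them known targets of FOXO1 and TCF-1, changed in both directions. Of 30 listed genes 28 were tested, 12 rose, 6 fell and 10 did not pass. These are 42.9% higher and 21.4% lower, against 33.5% and 12.2% of all tested genes, and the median of 0.11 on the log2 scale was near the 0.13 of all tested genes. On the median ratio scale 9 were higher and 7 lower, where all tested genes had 23.7% and 21.5%. Il7r, a target of FOXO1 and ETS1, rose to 604 ± 63.0 TPM in Rig1 KO, against 274 ± 31.2 TPM in WT (log2 fold change 1.14, limma adjusted p = 6.35e-06). The memory-associated chemokine receptor gene Cxcr3 rose to 447 ± 85.0 TPM, against 140 ± 13.1 TPM in WT, and the PI3K inhibitor gene Pik3ip1 to 154 ± 13.3 TPM, against 105 ± 5.69 TPM in WT. Klf3 rose by 0.56 on the log2 scale. The FOXO1 target Klf2 moved the other way, at 990 ± 50.2 TPM in Rig1 KO and 1937 ± 154 TPM in WT (log2 fold change -0.97, limma adjusted p = 2.15e-06). Cited2 (249 ± 15.6 TPM in Rig1 KO and 601 ± 47.2 TPM in WT), Btg1 (1885 ± 75.1 TPM in Rig1 KO and 2922 ± 141 TPM in WT) and Cd28 (47.3 ± 7.51 TPM in Rig1 KO and 116 ± 15.0 TPM in WT) fell as well. Known targets of FOXO1 lay in both directions.

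The effector list, which holds the programme these factors oppose, held larger changes than any of the 10 factors. Of 36 listed genes 34 were tested, 26 rose, 4 fell and 4 did not pass (76.5% higher and 11.8% lower, against 33.5% and 12.2% of all tested genes), with a median of 1.14 on the log2 scale as deposited and 1.02 after median ratio scaling. Klrk1, the gene of the activating receptor NKG2D, rose by 2.09 on the log2 scale, Gzmm by 1.68, the perforin gene Prf1 by 1.54 and Il18rap by 1.42. Nfil3, Irf4, Ifng and Bhlhe40 fell, with log2 fold changes of -1.74, -2.13, -1.68 and -1.69. Natural killer cells carry many of the same transcripts, and 8 of 10 genes of a natural killer list that also held Gata2 rose, with summed levels of 750.4 to 778 TPM in Rig1 KO and 403 to 572 TPM in WT. Most of these sums was Il2rb, at 504 ± 6.37 TPM in Rig1 KO and 365 ± 27.5 TPM in WT. Il2rb is also on the naive and memory list, so the sums do not measure natural killer cells alone. The part of natural killer cells in the effector changes was not tested. Of the other cell types, basophil and mast cell markers summed to 224 to 426 TPM in Rig1 KO and 20.8 to 64.6 TPM in WT (6 of 7 higher, 1 lower), and erythroid and progenitor markers to 189 to 334 TPM in Rig1 KO and 78.1 to 212 TPM in WT (4 of 7 higher), with ranges that overlap. Platelet markers summed to 41.0 to 49.8 TPM in Rig1 KO and 188 to 250.01 TPM in WT (4 of 5 lower). The ranges also overlapped for myeloid cells (811 to 951 TPM in Rig1 KO and 483 to 988 TPM in WT, 2 of 9 higher) and neutrophils (197 to 284 TPM in Rig1 KO and 119 to 640.5 TPM in WT, 2 of 9 higher and 2 lower). The same held for dendritic cells (285 to 358 TPM in Rig1 KO and 271 to 365 TPM in WT, 1 of 7 higher) and plasma cells (223 to 263 TPM in Rig1 KO and 154 to 239 TPM in WT, 1 of 3 higher). Overlapping sums hid changes of single markers. Mpo, Elane and the dendritic marker Itgax were higher in Rig1 KO, and S100a8 and S100a9 were lower.

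The genes whose pattern over the 9 libraries was nearest to that of Ets1, by root-mean-square difference of log2(TPM + 1) after centring each gene, were Arhgap30, Ago1 and Eif4ebp2, at 0.0350, 0.0361 and 0.0381. Those nearest to Myb were Usp38, Slc35f2 and Mynn, at 0.0594, 0.0689 and 0.0756. Ets1 and Myb were taken as the factors with the largest rise and fall. These distances describe the 9 libraries and carry no test.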

How the data were processed

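Poly(A) RNA was sequenced from 9 libraries, 4 Rig1 KO and 5 WT. The authors deposited TPM for each library. Reads went through fastp and featureCounts with mm39 (GRCm39), per the submitters' processing notes, without versions. The aligner and annotation are not given in the sources used here. Ratios of the deposited TPM between libraries returned whole reads for 100% of genes, and the implied gene length was within 1% of the genomic span for 96.6% of 17486 genes, so levels between genes use TPM recomputed per exon length. The recovered depth is a lower bound.

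Genes with at least 1 TPM in at least 4 libraries (10540) were tested with limma 3.58.1 (R 4.3.3), mean-variance trend, on log2(TPM + 1), which understates the change of low genes, with Benjamini-Hochberg adjustment at 0.05. The script was tested on simulated data. The members and lists were chosen with earlier results of these data known. Genes named from each list are the 4 higher and 4 lower with the smallest p, and direct relatives or partners whatever their call. Alternatives covered the pseudocount, the filter, scaling, gene length, limma-voom on recovered reads, replicate blocks, a B cell covariate and each library left out.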

Additional observations from a re-analysis of the deposited data

Results flagged for a closer look

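Among 20 groups examined (10 factors in each genotype), 2 held a library far from the others. Foxo1 in WT 1 was at 41.4 TPM, the highest of the 5 WT libraries, and its gap to the next was 0.795 of the WT range. Zeb1 in WT 2 was at 6.23 TPM, the lowest WT library, with a gap of 0.753 of the range. The critical value for 5 samples is 0.710, and chance alone picks out about 1 group in 20.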

How the results depend on the processing

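The direction of Tcf7, Id3, Ets1, Bach2, Myb, Foxo1, Foxp1 and Zeb1 was kept under all 23 alternatives. Ets1 passed in all of them, Tcf7 and Id3 in 19, Myb in 13, Bach2 in 11, and Foxo1, Foxp1 and Zeb1 in 4. Bach2 and Myb lost their calls under several settings, single libraries left out among them, and kept them under median ratio scaling, quantile scaling, exon lengths and limma-voom. The number of factors lower in Rig1 KO was 2 as reported, 5 after median ratio scaling, quantile scaling, exon lengths or limma-voom, 1 with a replicate block by title number or without WT 4 and WT 5, and 0 without a filter, with totals that leave out immunoglobulin, haemoglobin and mitochondrial genes, with the B cell covariate or with a replicate block by header number. The number higher was 3 as reported, and 1 after median ratio scaling or with the B cell covariate. It was 2 after quantile scaling, with exon lengths, by limma-voom or without WT 4 and WT 5. Leaving out 1 library in turn gave 3 higher each time and 0 to 2 lower. The cause was not tested.

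Tcf7 lost its call after median ratio scaling (0.084), with exon lengths (0.17), the B cell covariate (0.12) and without WT 4 and WT 5 (0.16), where limma adjusted p ran from 0.0512 to 0.371. Id3 lost it at 0.19 (median ratio), 0.21 (quantile), 0.24 (limma-voom) and 0.29 (covariate). Bach2 lost it at -0.25 (no filter), -0.24 (totals), -0.24 (replicate block by title), -0.25 (covariate) and -0.24 (replicate block by header). Myb lost it at -0.32 (no filter), -0.31 (totals), -0.33 (covariate), -0.33 (without WT 4 and WT 5) and -0.32 (replicate block by header). Under median ratio, quantile, exon lengths and limma-voom in turn, Foxo1 passed at -0.24, -0.24, -0.16 and -0.19, Foxp1 at -0.21, -0.25, -0.15 and -0.19, and Zeb1 at -0.26, -0.30, -0.21 and -0.25.

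Lef1 reversed to 0.0038 with the other totals, and Satb1 to -0.085 (median ratio), -0.071 (quantile), -0.033 (limma-voom), -0.056 (covariate) and -0.019 (without WT 4 and WT 5). Without 1 library, the log2 fold change ran from 0.17 to 0.24 for Tcf7, -0.048 to 0.039 for Lef1, -0.30 to -0.22 for Bach2, 0.27 to 0.37 for Id3, -0.17 to -0.06 for Foxo1, -0.13 to -0.07 for Foxp1, 0.00 to 0.07 for Satb1, -0.43 to -0.24 for Myb, 0.30 to 0.35 for Ets1 and -0.22 to -0.10 for Zeb1. The log2 difference of Id3 against Id2 reversed to -0.13 (quantile) and -0.0115 (replicate block by title), and ran from -0.0116 to 0.10 without 1 library. That of Foxo1 against Foxo3 ran from -0.11 to 0.0084.

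Over all tested genes 3526 were higher and 1291 lower as reported. With the covariate these were 2279 and 625, and the lower count was 2266 after median ratio scaling, 2195 after quantile scaling and 1944 by limma-voom. Partners and relatives that fell numbered 8 as reported, 4 with the covariate and 5 with the replicate block by header number. Libraries with the same number showed little shared deviation (correlations of -0.10 to 0.10 by title and -0.16 to 0.15 by header). These values were centred on few libraries per genotype, so they cannot exclude a pairing by number. The 2 settings without WT 4 and WT 5 and with the header number were chosen after seeing the data. Id3, with 219 reads in its shallowest library, has the least depth behind it.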
